A study of Homo sapiens and Mus musculus with 16 samples.

Results

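Long noncoding RNAs are transcripts that are processed much like messenger RNAs but do not act through a protein, and many work in a fixed compartment of the cell. The 7 genes described here were chosen by name from the published localization of their transcripts, and 7 of the 22286 genes in the human table and 5 of the 15881 genes in the mouse table are members. The nuclear-retained members are MALAT1, NEAT1, KCNQ1OT1 and MEG3. The cytoplasmic members are NORAD, OIP5-AS1 and TUG1, of which the mouse table holds Tug1 under the same symbol. The rule that chose them uses their names and no measured value.

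P-bodies are cytoplasmic condensates of protein and untranslated RNA, and LSM14A is a protein that marks them. Fluorescent LSM14A particles were sorted from lysates and their RNA was sequenced beside that of the cytoplasm from which they came, in 4 cell types with 2 P-body and 2 cytoplasm libraries each. HEK293T is a human embryonic kidney line and carried LSM14A-GFP from a lentiviral construct. Liver bud progenitors and day 20 neurons were derived from UCLA4, a human embryonic stem cell line with the fusion integrated at AAVS1, and KH2 mouse embryonic stem cells (mESC) with the fusion were grown in serum and LIF. All groups therefore carried the tagged protein, each cell type came from a single line, and no group lacked the tag. The labels give total RNA for HEK293T and mESC and polyA RNA for liver bud progenitors and neurons, so the RNA preparation and the cell type cannot be told apart where the first pair is set beside the second. Nuclei were removed by a low-speed spin and the cytoplasm was the resuspended pellet of a faster spin. The study describes its replicates as biologically independent, whereas the labels do not say that they came from separate cultures, and the p-values measure the spread between these libraries.

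Library totals lay between 6368953 and 17972284 counts, so that 3 counts, taken as the floor of detection, corresponded to 0.167 to 0.471 CPM (counts scaled to a library total of 1000000). Summed neuron markers (DCX, MAP2, TUBB3, STMN2, NCAM1 and ELAVL4) reached 9016 to 11751 CPM in neurons and 79.6 to 197 CPM in the other human libraries. The 7 liver bud markers summed to 192 to 206 CPM in P-bodies and 419 to 431 CPM in cytoplasm of liver bud progenitors, to 84.3 to 129.5 CPM in HEK293T and to 3.19 to 9.61 CPM in neurons. In liver bud progenitors APOB led with a mean of 299 CPM in cytoplasm, while AFP stood at 6.08 CPM in P-bodies and 8.04 CPM in cytoplasm and the pluripotency markers POU5F1, NANOG and LIN28A together held 775 to 894 CPM. The 5 mESC markers summed to 1969 to 2337 CPM in mESC.

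The members have known and different tasks. MALAT1 accumulates in nuclear speckles, where splicing factors gather, and NEAT1 is the RNA scaffold of paraspeckles. KCNQ1OT1 and MEG3 are expressed from imprinted loci, and KCNQ1OT1 silences its neighbours on the same chromosome. NORAD is known for binding Pumilio proteins, which repress messenger RNAs, OIP5-AS1 (also called Cyrano) carries a site for the microRNA miR-7 and triggers its decay, and TUG1 has been found in both nucleus and cytoplasm.

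Short sequence elements for which NORAD and OIP5-AS1 are known are shown first. Searched on the transcript strand only, with overlapping matches counted, the 5401 nt transcript of NORAD (hg38, chr20:36045618-36051018, minus strand, a single exon) held 15 matches to the Pumilio motif TGTANATA. That was 2.78 matches per kb and rank 3 among 6001 human genes whose longest annotated transcript has at least 5000 nt. Of those transcripts 55.5% held at least 1 match, and the 99th percentile was 0.695 per kb. The other members had between 0 matches (MALAT1) and 9 matches (KCNQ1OT1, in 91667 nt). The mouse gene 2900097C17Rik (mm10, chr2:156388065-156392979, minus strand) is mouse Norad under an older symbol. It is no member by the rule, was looked up after its values were seen, and held 11 matches in 4915 nt. The 3 human windows that most resembled a mouse window are shown with it because they show how far the repeated element is alike between species, with the motif in capitals and 11 flanking bases on each side.
NORAD, chr20:36050182-36050211: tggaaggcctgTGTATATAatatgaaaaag
2900097C17Rik, chr2:156392311-156392340: tagaagtcctgTGTATATAatatgaaaaag
NORAD, chr20:36049118-36049147: aaataccacttTGTAAATAtctttttgcta
2900097C17Rik, chr2:156391338-156391367: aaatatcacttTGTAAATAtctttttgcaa
NORAD, chr20:36048304-36048333: ctttgctatacTGTATATAttgtatatata
2900097C17Rik, chr2:156390520-156390549: ctttgctatgcTGTATATAttgtacatact

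The first and the second pair were the same at 28 of 30 bases and the third at 26 of 30. Of the 15 human cores 10 read TGTATATA, 4 read TGTAAATA and 1 read TGTACATA. A match is a description of the letters and no evidence of binding in these cells.

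**Figure D1:**
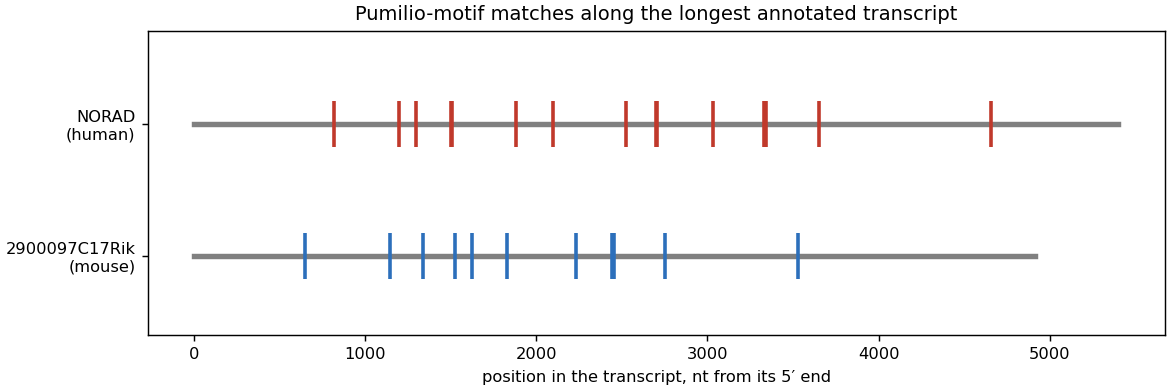
Positions of matches to the Pumilio motif along the longest annotated transcript of NORAD (human) and of 2900097C17Rik (mouse), in nucleotides from the 5′ end. Vertical marks are the 15 human and the 11 mouse matches, which lie from position 819 to 4657 in NORAD and from 651 to 3526 in the mouse transcript.

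OIP5-AS1 (hg38, chr15:41283958-41322392, plus strand, 4 exons, 8881 nt) held 3 matches to the seed of miR-7. Such a match occurred in 43.6% of human transcripts of at least 5000 nt. One of the 3 also paired with the 3′ part of the microRNA over a stretch of 14 bases, against 5 and 3 bases for the others. The microRNA is shown with its seed (bases 2 to 8) in capitals, from RefSeq on GRCh38.p14, and the site with the seed match in capitals. The mouse window is from the gene that GENCODE M21 calls 1700020I14Rik and the count table Oip5os1, the counterpart of OIP5-AS1 under another symbol.
hsa-miR-7-5p: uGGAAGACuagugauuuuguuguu
OIP5-AS1, chr15:41300572-41300599: agaacaacaaaatcaccaatGTCTTCCa
Oip5os1, chr2:119602134-119602161: agaacaacaaaatcaccaatGTCTTCCa

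The 28 bases were the same in both genomes. No member other than OIP5-AS1 (3 matches), KCNQ1OT1 (6 matches) and MEG3 (2 matches) held the seed match in human. MALAT1 (chr11:65497640-65508073, plus strand), NEAT1 (chr11:65422774-65445540, plus strand) and KCNQ1OT1 (chr11:2597308-2700003, minus strand) are single-exon transcripts in GENCODE 44, MEG3 (chr14:100779410-100861031, plus strand) has 7 exons in its longest form, and TUG1 (chr22:30969245-30979395, plus strand) has 3. TUG1 is annotated as protein_coding and the other 6 as lncRNA. KCNQ1OT1 lies antisense within KCNQ1, MALAT1 is overlapped by the antisense TALAM1, and OIP5-AS1 overlaps OIP5 on the opposite strand and NUSAP1 on its own. MEG3 overlaps MIR493HG on its own strand, and antisense lncRNA genes without a symbol overlap MEG3 and TUG1. In mouse Tug1 overlaps Morc2a and Kcnq1ot1 lies within Kcnq1, both on opposite strands. Whether the counting used strand is not given in the sources used here, so reads of these overlapping genes cannot be told apart.

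Together the 7 members made up little of each library. They held 0.0746% and 0.0779% of counts in HEK293T P-bodies, with 0.0726% and 0.0676% in cytoplasm. In liver bud progenitors they held 0.225% and 0.220% in P-bodies and 0.378% and 0.364% in cytoplasm, and the fractions did not overlap. Neuron P-bodies held 0.0976% and 0.110%, below the 0.164% and 0.184% of neuron cytoplasm. The 5 mouse members held 0.121% and 0.122% in mESC P-bodies and 0.109% and 0.105% in cytoplasm.

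Per length of the longest annotated transcript, MALAT1 was the most abundant member in the cytoplasm of each human cell type. It stood at 141 ± 3.77 CPM per kb (SD, n = 2) in liver bud cytoplasm, where TUG1 followed with 44.8 ± 2.47 CPM per kb and NEAT1 with 39.9 ± 0.330 CPM per kb. In HEK293T cytoplasm MALAT1 (25.5 ± 1.83 CPM per kb) and TUG1 (24.9 ± 1.60 CPM per kb) differed by less than their spread. In liver bud P-bodies OIP5-AS1 (68.2 ± 0.265 CPM per kb) likewise stood within the spread of MALAT1 (68.9 ± 4.52 CPM per kb). These levels per length depend on which isoform was present, which is unknown for NEAT1 and KCNQ1OT1 in particular.

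**Figure D2:**
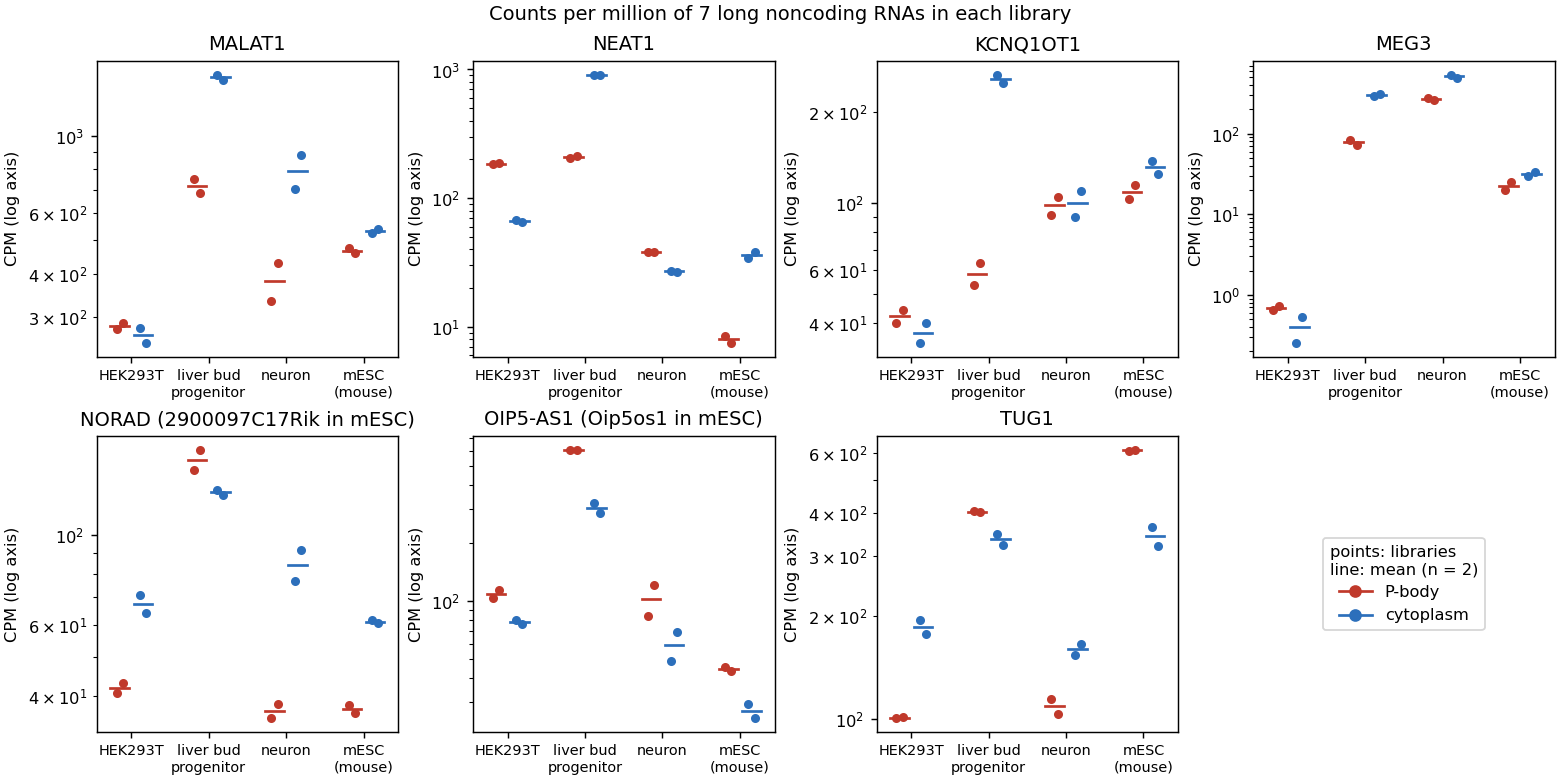
CPM (log axis, its own range in each panel) of each member in every library, with P-bodies in red and cytoplasm in blue, points for libraries and lines for the mean of 2. OIP5-AS1 is the member whose P-body points lie above its cytoplasm points in each cell type, while MEG3 in HEK293T lies at or below 0.723 CPM.

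The first question was which of the members are held in P-bodies of HEK293T. NEAT1 was the member most enriched there. It had 183 and 188 CPM in P-bodies and 67.4 and 65.7 CPM in cytoplasm. All P-body libraries lay above both cytoplasm libraries. The log2 change was 1.61 ± 0.07 (SE, edgeR adjusted p = 4.65e-28), and 91.6% of all genes had a lower change.

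OIP5-AS1 was enriched as well. Its libraries held 104 and 113 CPM in P-bodies and 79.7 and 75.9 CPM in cytoplasm, without overlap. The log2 change was 0.61 ± 0.08 (edgeR adjusted p = 6.78e-10).

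The other cytoplasmic members went the opposite way. NORAD stood at 40.5 and 43.0 CPM in P-bodies against 71.0 and 64.0 CPM in cytoplasm, and the log2 change was -0.56 ± 0.10 (edgeR adjusted p = 8.63e-07). TUG1 stood at 100.4 and 101 CPM in P-bodies against 194 and 177 CPM in cytoplasm, and the log2 change was -0.76 ± 0.07 (edgeR adjusted p = 1.03e-14). For both genes each P-body library was below both cytoplasm libraries.

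MALAT1 and KCNQ1OT1 moved little. MALAT1 had 278 and 288 CPM in P-bodies and 279 and 252 CPM in cytoplasm, which overlapped before scaling and not after it. Its log2 change was 0.22 ± 0.06 (edgeR adjusted p = 0.00175). KCNQ1OT1 had 40.1 and 44.2 CPM in P-bodies and 34.2 and 39.8 CPM in cytoplasm, with a log2 change of 0.32 ± 0.11 (edgeR adjusted p = 0.0134).

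Both of these calls were lost when libraries were scaled by their totals only, with edgeR adjusted p = 0.259 for MALAT1 and 0.179 for KCNQ1OT1. MALAT1 was also lost without P-body replicate 2 (0.0559) or cytoplasm replicate 2 (0.0582), and KCNQ1OT1 without P-body replicate 2 (0.180) or cytoplasm replicate 1 (0.117). MEG3 was barely present in HEK293T, with 10 and 13 counts in P-bodies and 3 and 6 counts in cytoplasm, and its log2 change of 0.93 ± 0.79 did not pass the test (edgeR adjusted p = 0.400). In all, 4 members were called higher, 3 of them nuclear-retained, where 19.3% of all genes were, and 2 were called lower, where 22.8% of all genes were. Of genes averaging 20 CPM or more, a level that MEG3 did not reach, 50.7% were called higher and 34.2% lower.

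The members divided by class in liver bud progenitors. KCNQ1OT1 had 53.2 and 63.0 CPM in P-bodies and 267 and 249 CPM in cytoplasm. NEAT1 had 204 and 213 CPM in P-bodies and 914 and 903 CPM in cytoplasm. MEG3 had 83.6 and 72.8 CPM in P-bodies and 295 and 311 CPM in cytoplasm. Both cytoplasm libraries of each of these genes lay far above both P-body libraries.

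Their log2 changes were -1.96 ± 0.08 for KCNQ1OT1 (edgeR adjusted p = 3.47e-32), -1.94 ± 0.06 for NEAT1 (edgeR adjusted p = 6.13e-40) and -1.77 ± 0.07 for MEG3 (edgeR adjusted p = 3.21e-31). MALAT1 fell less. It had 752 and 686 CPM in P-bodies and 1502 and 1446 CPM in cytoplasm, again without overlap, and changed by -0.85 ± 0.05 (edgeR adjusted p = 1.63e-24).

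OIP5-AS1 rose most among the cytoplasmic members. It had 607 and 604 CPM in P-bodies and 321 and 284 CPM in cytoplasm, and the log2 change was 1.19 ± 0.06 (edgeR adjusted p = 5.59e-28). NORAD had 144 and 162 CPM in P-bodies and 129 and 126 CPM in cytoplasm, with a log2 change of 0.46 ± 0.07 (edgeR adjusted p = 4.24e-07). TUG1 had 405 and 404 CPM in P-bodies and 348 and 322 CPM in cytoplasm, with a log2 change of 0.46 ± 0.06 (edgeR adjusted p = 4.83e-10).

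No P-body library of these genes overlapped a cytoplasm library. All 4 nuclear-retained members were thus called lower, where 17.1% of all genes were, and all 3 cytoplasmic members higher, where 21.4% of all genes were. Among genes averaging 20 CPM or more, as all members did here, 27.7% were called lower and 53.1% higher. The median log2 change was -1.85 over the 4 nuclear-retained members and 0.46 over the 3 cytoplasmic ones, beside -0.09 over all genes tested. These 7 calls and their directions were the same under every alternative fit that was run. The summed fibroblast markers COL1A1 and THY1 were also lower in P-bodies here, at 62.0 to 67.6 CPM against 157 to 181 CPM in cytoplasm. Neither marker was at 0, and COL1A1 carried the difference. Its means were 33.5 CPM in P-bodies and 136 CPM in cytoplasm, whereas THY1 stood at 31.3 and 33.2 CPM. The sum of the 7 liver bud markers, none at 0 there, was lower in P-bodies as well, as given above. TTR went the other way, with means of 46.0 CPM in P-bodies and 37.6 CPM in cytoplasm. The part of either list in the result was not tested.

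In neurons the 2 classes were not separated. NORAD fell most, from 77.0 and 91.6 CPM in cytoplasm to 35.2 and 38.1 CPM in P-bodies, and the log2 change was -1.36 ± 0.14 (edgeR adjusted p = 1.05e-05). MALAT1 stood at 703 and 879 CPM in cytoplasm and 334 and 431 CPM in P-bodies, and the log2 change was -1.21 ± 0.12 (edgeR adjusted p = 4.28e-06). The P-body libraries of both genes lay below both cytoplasm libraries.

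MEG3, which is abundant in neurons, had 541 and 493 CPM in cytoplasm and 279.6 and 261 CPM in P-bodies, and the log2 change was -1.10 ± 0.09 (edgeR adjusted p = 1.57e-06). TUG1 had 154 and 166 CPM in cytoplasm and 114 and 103 CPM in P-bodies, and the log2 change was -0.72 ± 0.11 (edgeR adjusted p = 0.000232). Neither gene had overlapping fractions.

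OIP5-AS1 was the neuron member called higher. It had 83.9 and 121 CPM in P-bodies and 48.9 and 69.1 CPM in cytoplasm, and the log2 change was 0.64 ± 0.18 (edgeR adjusted p = 0.0176). The fractions did not overlap, but the P-body replicates were far apart, and the call was lost without P-body replicate 2 (edgeR adjusted p = 0.0621) or cytoplasm replicate 1 (0.142). NEAT1 was low in neurons, with 37.9 and 38.0 CPM in P-bodies and 27.0 and 26.9 CPM in cytoplasm. Its log2 change of 0.33 ± 0.18 did not pass the test (edgeR adjusted p = 0.197).

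KCNQ1OT1 did not pass either. It had 91.5 and 105 CPM in P-bodies and 89.8 and 109.8 CPM in cytoplasm, which overlapped, with a log2 change of -0.19 ± 0.13 (edgeR adjusted p = 0.296), and 1 alternative, the fit over all human libraries, called it (0.0373). Thus 1 member was called higher, where 14.6% of all genes were, and 4 were called lower, where 14.1% of all genes were. At an average of 20 CPM or more, 31.4% of genes were called higher and 37.1% lower. The neuron P-body replicates were the least alike of all groups, with a chi-square of 24.8 per gene against 2.15 to 6.69 in the others. The summed neural progenitor and glia markers (SOX2, PAX6 and GFAP, none at 0) stood at 648 to 665 CPM in neuron P-bodies and 152 to 160 CPM in neuron cytoplasm. SOX2 and PAX6 were higher in neuron P-bodies, whereas GFAP was lower, with means of 3.70 CPM there and 8.23 CPM in cytoplasm. The part of these markers in the neuron values was not tested. The same sum was 599 to 632 CPM in HEK293T P-bodies and 159 to 184 CPM in HEK293T cytoplasm.

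In mESC, Tug1 was enriched and Neat1 depleted. Tug1 had 607 and 613 CPM in P-bodies and 365 and 320.0 CPM in cytoplasm, and the log2 change was 1.24 ± 0.05 (edgeR adjusted p = 8.06e-17). Neat1 had 8.53 and 7.45 CPM in P-bodies and 34.0 and 38.1 CPM in cytoplasm, and the log2 change was -1.77 ± 0.15 (edgeR adjusted p = 5.24e-10). Neither gene had overlapping fractions, and both directions were the same under every scaling tried.

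Malat1 depended on the scaling. It had 475 and 459 CPM in P-bodies and 524 and 537 CPM in cytoplasm, so that its plain CPM was lower in P-bodies, whereas the log2 change after TMM scaling was 0.22 ± 0.04 (edgeR adjusted p = 8.95e-05) and with library totals only -0.18 ± 0.04 (edgeR adjusted p = 0.000441). Library totals only moved the median of all genes by -0.40 in this comparison, and relative to that median the change of Malat1 was 0.33 under either scaling. Kcnq1ot1 had 103 and 115 CPM in P-bodies and 138 and 124 CPM in cytoplasm, and its log2 change was 0.13 ± 0.07 (edgeR adjusted p = 0.110), which turned to -0.27 with library totals only (0.00103) and was called higher without P-body replicate 1 (0.0306) or cytoplasm replicate 1 (0.0311).

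Meg3 had 19.8 and 25.0 CPM in P-bodies and 29.5 and 33.8 CPM in cytoplasm, and its log2 change was -0.10 ± 0.13 (edgeR adjusted p = 0.570), which became -0.50 with library totals only (0.00176) and lay above 0 without P-body replicate 1 or cytoplasm replicate 2. Of the 5 mouse members, 2 were called higher, where 25.8% of all genes were, and 1 lower, where 20.6% of all genes were. The shares among genes averaging 20 CPM or more were 53.5% higher and 25.4% lower. Oip5os1 had 45.3 and 43.1 CPM in P-bodies and 29.2 and 24.7 CPM in cytoplasm, without overlap, and a log2 change of 1.12 ± 0.11 (edgeR adjusted p = 3.41e-09). 2900097C17Rik had 38.1 and 36.2 CPM in P-bodies and 61.6 and 60.5 CPM in cytoplasm, also without overlap, with a log2 change of -0.31 ± 0.09 (edgeR adjusted p = 0.00528), a call that DESeq2 did not make.

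**Figure D3:**
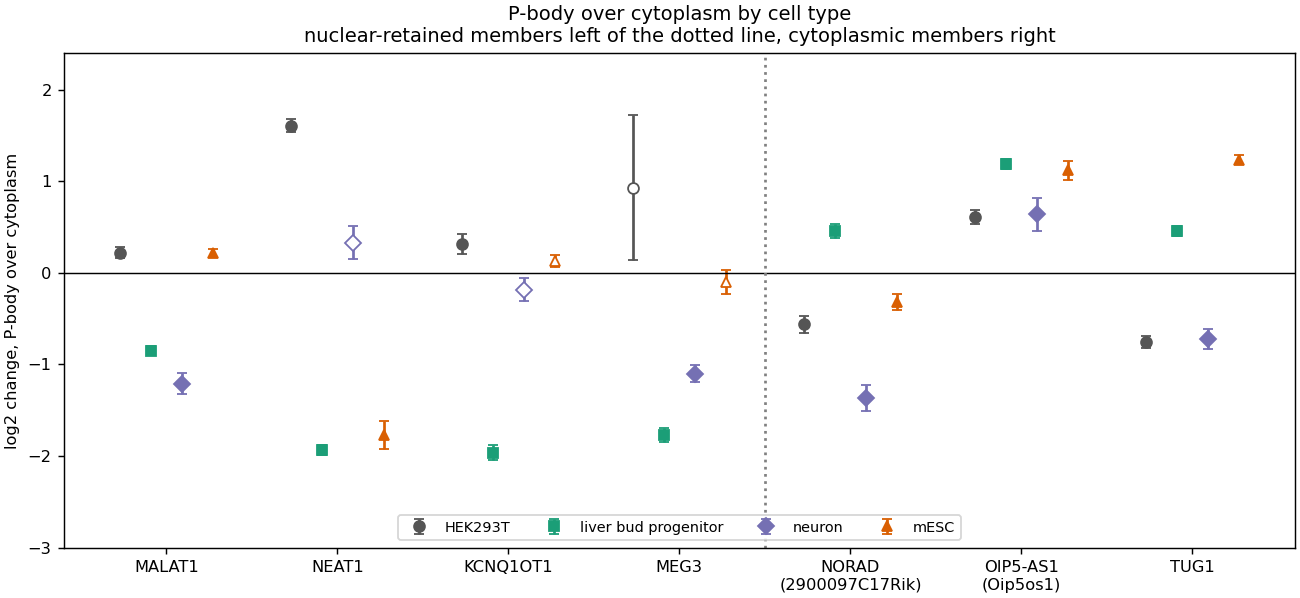
Log2 change of P-body over cytoplasm (bars: SE from edgeR) for each member by cell type, with filled symbols for an adjusted p under 0.05 and open symbols for the rest. OIP5-AS1 and its mouse counterpart are above 0 in all 4 cell types, and NEAT1 runs from 1.61 in HEK293T to -1.94 in liver bud progenitors.

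OIP5-AS1, with Oip5os1 in mouse, was thus called higher in P-bodies of each of the 4 cell types, with the neuron call resting on single libraries as given above. MALAT1, NEAT1, KCNQ1OT1, NORAD and TUG1 were called in opposite directions in different cell types. For MALAT1 the higher call was lost in HEK293T and reversed in mESC with library totals only. The higher call of KCNQ1OT1 in HEK293T was also lost with that scaling.

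**Figure D4:**
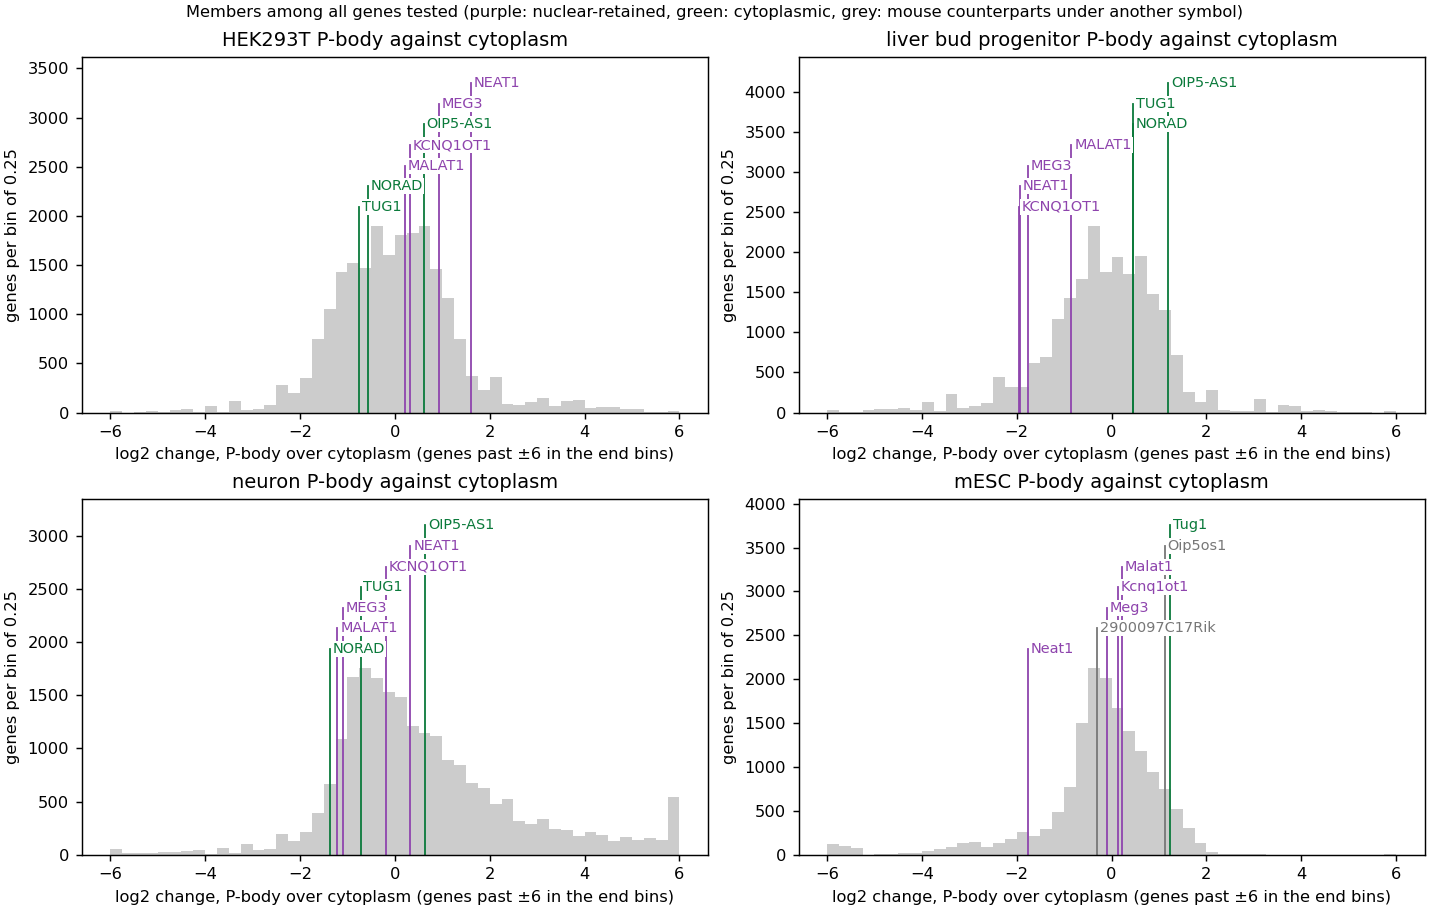
Number of genes by log2 change of P-body over cytoplasm in each cell type (bins of 0.25, genes past the ends of the axis in the end bins), with the members marked in purple (nuclear-retained) and green (cytoplasmic) and the mouse counterparts in grey. In liver bud progenitors the 4 purple lines lie below 0 and the 3 green lines above it, whereas in HEK293T and neurons the colours mix.

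The class contrast was also taken within each library, as the mean log2 CPM of the nuclear-retained members minus that of the cytoplasmic ones. This needs no scaling between libraries. Its level carries the lengths of the genes, so only its difference between fractions is read. In liver bud progenitors it was -1.02 and -1.08 in P-bodies and 1.24 and 1.32 in cytoplasm, a difference of -2.33 with an SD of 0.07. The nuclear-retained members were thus lower in P-bodies relative to the cytoplasmic ones in every pairing of these libraries.

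In HEK293T the order was the opposite. The contrast was -1.13 and -1.11 in P-bodies and -2.31 and -1.93 in cytoplasm, a difference of 1.00 with an SD of 0.26, and MEG3 enters it at counts near the floor. Without MEG3 the difference was 0.95. In neurons it was 0.94 and 0.90 in P-bodies and 1.06 and 0.90 in cytoplasm, a difference of -0.06 that was below its SD of 0.12. In mESC, with Tug1 as the sole cytoplasmic member, it was -3.50 and -3.45 in P-bodies and -1.98 and -1.73 in cytoplasm, a difference of -1.62 with an SD of 0.18.

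The ratio of MALAT1 to NORAD counts gave the same directions as the contrast in HEK293T and liver bud progenitors. It was 6.85 and 6.70 in HEK293T P-bodies and 3.94 and 3.95 in HEK293T cytoplasm. Liver bud progenitors had 5.21 and 4.22 in P-bodies and 11.6 and 11.5 in cytoplasm, in the opposite order. In neurons it was 9.49 and 11.3 in P-bodies and 9.13 and 9.60 in cytoplasm, which overlapped.

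**Figure D5:**
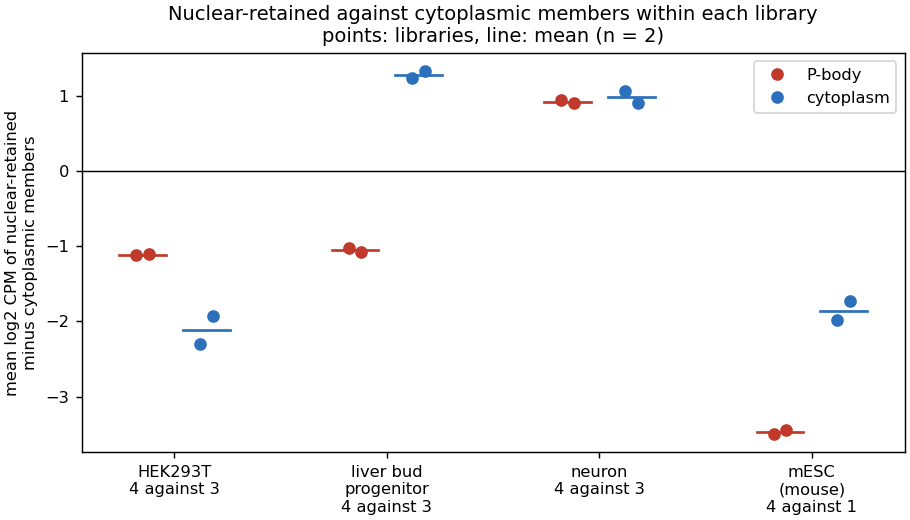
Mean log2 CPM of nuclear-retained members minus that of cytoplasmic members in each library (points; lines: mean of 2), with P-bodies in red and cytoplasm in blue and the number of members under each cell type. The difference between the fraction means is -2.33 in liver bud progenitors, -1.62 in mESC, 1.00 in HEK293T and -0.06 in neurons.

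RNAs of the nucleus other than the members were read beside this contrast. The list held small nuclear and nucleolar RNAs (RN7SK, SCARNA2, RPPH1, RMRP and TERC), and those not called lower did not pass the test. In HEK293T, where 3 nuclear-retained long noncoding RNAs were called higher, 4 of 5 were lower. There 22.8% of all genes were lower, and 34.2% of those averaging 20 CPM or more. RN7SK, which holds back transcription elongation, was among the 4, with a log2 change of -2.31 (edgeR adjusted p = 3.70e-44). Liver bud progenitors had 3 of 5 lower, beside 17.1% of all genes and 27.7% at that level. SCARNA2, an RNA of Cajal bodies, changed by -1.86 (edgeR adjusted p = 3.40e-27), close to NEAT1, and RN7SK by -0.19 (edgeR adjusted p = 0.00123). In neurons 4 of 5 were lower, beside 14.1% of all genes and 37.1% at that level. In mESC 2 of 2 were lower, beside 20.6% and 25.4%. The RNA preparation of HEK293T and mESC differs from that of the other cell types. Its part in these counts was not tested. Carry-over of nuclear RNA into either fraction was not tested.

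Neurons and liver bud progenitors share the line of origin and the RNA preparation, and the difference of their P-body enrichments was tested as an interaction over 8 libraries. The enrichment of NEAT1 was higher in neurons by 2.26 ± 0.11 on the log2 scale (edgeR adjusted p = 8.64e-09). KCNQ1OT1 was higher by 1.77 ± 0.16 (edgeR adjusted p = 1.59e-06) and MEG3 by 0.66 ± 0.13 (edgeR adjusted p = 0.00244). The enrichment of NORAD was lower in neurons, with a difference of -1.83 ± 0.15 (edgeR adjusted p = 8.49e-07), and so was that of TUG1, with -1.18 ± 0.12 (edgeR adjusted p = 5.21e-06).

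The 3 members called higher were all nuclear-retained, where 9.21% of all genes were called higher, and the 2 called lower were cytoplasmic, where 8.5% of all genes were called lower. With an average of 20 CPM or more, 19.6% of genes were called higher and 20.7% lower. The median of all genes in this comparison was 0.23. Relative to it NEAT1 stood at 2.03, KCNQ1OT1 at 1.54, MEG3 at 0.43, TUG1 at -1.41 and NORAD at -2.05. MALAT1 (-0.60) and OIP5-AS1 (-0.78), which were not called, lay farther from that median than MEG3. All 5 calls were made under each of 15 alternatives. The differences for MALAT1 (-0.37 ± 0.13, edgeR adjusted p = 0.0734) and OIP5-AS1 (-0.56 ± 0.19, edgeR adjusted p = 0.0626) did not pass, although 6 of the 15 alternatives called each of them, with the replicate block giving 4.39e-05 and 6.03e-06.

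Levels in the cytoplasm also differed between these cells. In bulk libraries, fewer cells with a transcript and less transcript per cell cannot be told apart. NEAT1 stood at 909 ± 7.50 CPM (SD, n = 2) in liver bud cytoplasm and at 26.9 ± 0.103 CPM in neuron cytoplasm, a log2 difference of -4.69 ± 0.09 (SE, edgeR adjusted p = 2.40e-55). OIP5-AS1 differed by -1.98 ± 0.10 (edgeR adjusted p = 4.22e-30), KCNQ1OT1 by -0.99 ± 0.09 (edgeR adjusted p = 1.57e-16), TUG1 by -0.68 ± 0.08 (edgeR adjusted p = 1.24e-11) and MALAT1 by -0.52 ± 0.07 (edgeR adjusted p = 1.59e-09).

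MEG3 was the member higher in neuron cytoplasm, by 1.16 ± 0.08 (edgeR adjusted p = 1.29e-22). It was the only member called higher, where 26.0% of all genes were, and 5 were called lower, where 25.8% of all genes were. For genes averaging 20 CPM or more these shares were 45.6% and 38.4%. NORAD (-0.21 ± 0.10, edgeR adjusted p = 0.0589) did not pass and was called with library totals only, with RLE size factors, with filterByExpr, in the fit over all human libraries and without neuron cytoplasm replicate 2. Library totals only moved the median of all genes by -0.37 here.

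In P-bodies all 7 members differed between the 2 cell types. MEG3 (1.65 ± 0.10) and KCNQ1OT1 (0.61 ± 0.13, edgeR adjusted p = 0.00428) were higher in neuron P-bodies, where 18.4% of all genes were called higher. OIP5-AS1 (-2.70 ± 0.15), NEAT1 (-2.60 ± 0.10), NORAD (-2.21 ± 0.12), TUG1 (-2.04 ± 0.09) and MALAT1 (-1.05 ± 0.11) were lower, where 22.7% of all genes were called lower. Genes averaging 20 CPM or more were called higher in 31.5% and lower in 46.2% of cases. The edgeR adjusted p-values of the members other than KCNQ1OT1 lay between 4.21e-08 (NEAT1) and 4.44e-05 (MALAT1). This comparison, the one of cytoplasm and the interaction share their libraries with the fraction comparisons above.

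Over the 6 human groups, the order of mean CPM differed by member. Liver bud cytoplasm was highest for MALAT1 (1474 ± 39.3 CPM), NEAT1 and KCNQ1OT1 (258 ± 12.1 CPM), neuron cytoplasm for MEG3 (517 ± 34.3 CPM), and liver bud P-bodies for NORAD (153 ± 12.8 CPM), OIP5-AS1 (606 ± 2.35 CPM) and TUG1 (404 ± 0.994 CPM). Neighbouring groups in that order overlapped for MALAT1 in 2 of 5 pairs, neuron cytoplasm with liver bud P-bodies and the HEK293T fractions with each other. KCNQ1OT1 overlapped in 1 of 5 pairs (the neuron fractions) and OIP5-AS1 in 1 of 5 (HEK293T with neuron P-bodies). For the other 4 members no neighbours overlapped.

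The genes most like each member were found by Pearson correlation of log2 CPM over the 12 human libraries, among 6914 genes that averaged 20 CPM or more. They share libraries and cell types, so r only describes the likeness. MALAT1 was most like SNX33 (r = 0.987), NEAT1 like FGFR2 (0.971), KCNQ1OT1 like KDM2A (0.943), MEG3 like SEMA5A (0.997), NORAD like RHOC (0.941), OIP5-AS1 like ARFGEF1 (0.992) and TUG1 like FTL (0.980). The second in the same order were RNA45SN2 (0.965), CARMIL1 (0.968), SEC14L1 (0.933), TENM1 (0.996), EPB41L4B (0.938), BRWD3 (0.989) and ACER3 (0.973). Among the members themselves NORAD and TUG1 were most alike (r = 0.959) and NEAT1 and MEG3 least (r = -0.03).

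Other long noncoding RNAs of known compartment were read by lists. Of 15 further nuclear RNAs, 2 were called higher and 2 lower in HEK293T P-bodies, 3 and 2 in those of liver bud progenitors, and 3 were lower in neurons with the rest not called. Of the 8 tested in mESC 1 was higher and 1 lower. Many of these RNAs were low. In HEK293T only FIRRE (28.6 CPM) averaged 20 CPM or more, and MEG8 and MEG9 had at most 3 counts in any library. The 2 lower calls in liver bud progenitors were MIAT, at a mean of 6.73 CPM, and MEG9, at 1.58 CPM. Low counts leave little power, so a lack of a call says little for such genes. The shares of all genes called in each direction are those given above for each cell type, and 3 of 15 higher in liver bud progenitors is near the 21.4% of all genes. In liver bud progenitors FIRRE, a nuclear RNA of the X chromosome, rose by 1.34 ± 0.06 (edgeR adjusted p = 3.52e-28) and MEG8, transcribed downstream of MEG3 from the same imprinted locus, by 0.93 ± 0.07 (edgeR adjusted p = 2.11e-18), opposite in direction to MEG3. In neurons MEG8 was lower like MEG3 (-0.71 ± 0.24, edgeR adjusted p = 0.0443), a call lost under DESeq2, RLE and library totals only. Rian, the mouse name of MEG8, rose in mESC by 1.33 ± 0.05 (edgeR adjusted p = 1.45e-17), where Meg3 did not pass. In neurons MIAT (-1.64 ± 0.11, edgeR adjusted p = 1.90e-07) and RMST (-1.06 ± 0.08, edgeR adjusted p = 9.30e-07) fell beside MALAT1 and MEG3.

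Further cytoplasmic long noncoding RNAs, mostly hosts of small nucleolar RNAs, were lower in HEK293T P-bodies for 9 of 13. The other 4 (H19, LINC-ROR, UCA1 and TINCR) did not pass the test and had at most 18 counts in any HEK293T library. There 22.8% of all genes were lower, and 34.2% of those averaging 20 CPM or more. Liver bud progenitors had 5 of 13 higher and 1 lower, beside 21.4% and 17.1% of all genes and 53.1% and 27.7% at that level. GAS5, a host of small nucleolar RNAs, changed by -0.97 ± 0.10 in HEK293T (edgeR adjusted p = 1.93e-13) and by 1.39 ± 0.12 in liver bud progenitors (edgeR adjusted p = 9.53e-16), and SNHG5 by -1.64 ± 0.10 (edgeR adjusted p = 7.80e-23) and 1.69 ± 0.15 (edgeR adjusted p = 8.52e-16). SNHG1 fell in both, with log2 changes of -1.16 and -1.08 (edgeR adjusted p = 5.87e-19 and 3.97e-16). In neurons 2 of 13 were lower (DANCR and SNHG1), neither under DESeq2, RLE or library totals only. In mESC 3 of 6 were lower, and the rest were not called in either cell type. The shares of all genes called lower were 14.1% in neurons and 20.6% in mESC, or 37.1% and 25.4% at 20 CPM or more. NORAD and TUG1 likewise were lower in HEK293T and higher in liver bud progenitors, and the difference between these cell types was not tested.

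All long noncoding RNAs that averaged 20 CPM or more, the members left out, give the background for the class. In HEK293T 26 of 39 were called higher and 8 lower, with a median log2 change of 0.43 beside 0.25 for all genes at that level, of which 50.7% were higher and 34.2% lower. Liver bud progenitors had 30 of 57 higher and 14 lower (median 0.43 beside 0.32), and 53.1% of all genes at that level were higher and 27.7% lower, so that the share of higher calls was near the background. In neurons 6 of 48 were higher and 20 lower (median -0.47 beside -0.15), beside 31.4% and 37.1% of all genes. In mESC 15 of 20 were higher and 3 lower (median 1.18 beside 0.27), beside 53.5% and 25.4%.

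Genes tied to the members were read last. The messenger RNA of PUM2, a Pumilio protein and partner of NORAD, was higher in P-bodies of all 4 cell types. It rose by 0.61 ± 0.06 in HEK293T (edgeR adjusted p = 1.10e-14), by 0.79 ± 0.06 in liver bud progenitors (edgeR adjusted p = 2.27e-17) and by 0.72 ± 0.11 in neurons (edgeR adjusted p = 0.000261). Pum2 rose by 1.05 ± 0.04 in mESC (edgeR adjusted p = 1.88e-16).

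Messenger RNAs of paraspeckle and speckle proteins were read beside NEAT1 and MALAT1. Of 10, 8 were lower and 2 higher in HEK293T, where NEAT1 was higher. Liver bud progenitors, where NEAT1 was lower, also had 8 lower and 2 higher. Of all genes 22.8% were lower and 19.3% higher in HEK293T, and 17.1% and 21.4% in liver bud progenitors. At an average of 20 CPM or more, these shares were 34.2% and 50.7%, and 27.7% and 53.1%. With DESeq2 and with RLE, 5 were lower in HEK293T, NONO, SON and TARDBP losing the call. Neither higher call in liver bud progenitors (HNRNPK and TARDBP) was made by DESeq2 or with library totals only. SRRM2, a core protein of speckles, was lower in both, with log2 changes of -1.45 and -1.56 (edgeR adjusted p = 2.44e-30 and 5.78e-37). SFPQ and PSPC1, proteins of paraspeckles, were higher in HEK293T (0.34 ± 0.06 and 0.63 ± 0.10, edgeR adjusted p = 1.26e-06 and 3.34e-07) and lower in liver bud progenitors (-0.46 ± 0.08 and -0.61 ± 0.13, edgeR adjusted p = 7.29e-07 and 0.000118). In neurons 3 of 10 were lower and 1 higher, beside 14.1% and 14.6% of all genes and 37.1% and 31.4% at 20 CPM or more. In mESC 5 were lower and 3 higher with TMM, and 9 were lower with library totals only. With TMM 20.6% of all genes were lower and 25.8% higher there, or 25.4% and 53.5% at 20 CPM or more.

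Of the genes near members on the chromosome, examples are given for liver bud progenitors. MORC2, which faces TUG1, changed by -1.11 ± 0.09 (edgeR adjusted p = 1.46e-16), where TUG1 rose. RTL1, an imprinted gene near MEG3, changed by -1.71 ± 0.20 (edgeR adjusted p = 3.62e-11), in the direction of MEG3.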

How the data were processed

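RNA of P-bodies and cytoplasm was measured in 16 libraries. The values deposited by the authors are unnormalized read counts, whole numbers listed by gene symbol for hg38 and mm10. Their methods give salmon for snapTotal-seq libraries and hisat2 with featureCounts for Smart-seq libraries, and the human table holds columns of both kinds without naming the tool. The smallest gene total was 10, the minimum stated in the methods. Tables of the authors' own comparisons (log2 fold changes and p-values) were not used. Groups came from the labels.

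Tests on these counts were quasi-likelihood fits in edgeR 4.0.16 (R 4.3.3, TMM, two-sided, Benjamini-Hochberg adjustment over all genes with a count in a compared library, threshold 0.05). P-bodies were compared with cytoplasm on the 4 libraries of a cell type, and neurons with liver bud progenitors as an interaction and within each fraction. SE is the absolute log2 change over the square root of F. CPM are counts scaled to a library total of 1000000. The class contrast used log2 CPM with 0.5 counts added. The SE rests on the dispersion fitted to the libraries and the SD on the 2 libraries of a group, and the floor covers counting error only. Alternatives were DESeq2 1.42.0, RLE, library totals only, filterByExpr, ribosomal RNA genes left out, a replicate block, all human libraries in a single fit and leaving out each library. Mouse counterparts were added to the class contrast after seeing the data. The rule for members uses names alone, but members, lists and tests were chosen with earlier results of these data known. The text names the members, examples of the listed genes that passed the test, the 2 genes most like each member, and 2900097C17Rik, chosen after its values were seen. On simulated counts (200 genes changed by 1.5 on the log2 scale) 66.5% of the changed genes were recovered for the interaction and 92% to 96% for the other comparisons, and false calls numbered 4 to 12. The simulation gave all libraries the same dispersion and changed only genes above a minimum mean count. The replicates of the real groups varied unequally, with a chi-square per gene from 2.15 in mESC P-bodies to 24.8 in neuron P-bodies. These figures therefore describe the simulated counts only. Sequences and positions came from GENCODE 44 and M21 and from RefSeq (GRCh38.p14). The counts of 2 lists, and a gene of each, are not reported here.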

Additional observations from a re-analysis of the deposited data

Results flagged for a closer look

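P-body enrichment of 5 members differed between neurons and liver bud progenitors by the interaction test of edgeR. The difference, neuron minus liver bud progenitor, was 2.26 for NEAT1, 1.77 for KCNQ1OT1, 0.66 for MEG3, -1.83 for NORAD and -1.18 for TUG1.

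In other pairs of cell types both P-body libraries of a member lay above both cytoplasm libraries in one cell type and below them in the other after TMM scaling. These differences were not tested, and the RNA preparation or the species differs within each pair that sets HEK293T or mESC beside another cell type. HEK293T minus liver bud progenitor gave differences in log2 change of 3.54 for NEAT1, 2.70 for MEG3, 2.28 for KCNQ1OT1, 1.07 for MALAT1, -1.02 for NORAD and -1.21 for TUG1. MEG3 had at most 13 counts in any HEK293T library, and the HEK293T directions of MALAT1 and KCNQ1OT1 rest on small changes.

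HEK293T minus neuron gave 2.03 for MEG3 and 1.43 for MALAT1. HEK293T minus mESC gave 3.38 for NEAT1 and -1.99 for TUG1. Liver bud progenitor minus mESC gave -1.07 for MALAT1. Neuron minus mESC gave -1.43 for MALAT1, 2.10 for NEAT1 and -1.96 for TUG1, although NEAT1 in neurons did not pass the edgeR test. The values for MALAT1 with mESC reverse in the mESC part when libraries are scaled by their totals only. Groups of 2 libraries do not allow a test for single libraries that stand apart.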

How the results depend on the processing

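With library totals only, HEK293T members called higher numbered 2 in place of 4, and mESC members 1 higher and 4 lower in place of 2 and 1, with Malat1 at -0.18 and Kcnq1ot1 at -0.27. That scaling moved the median of all genes by -0.13 (HEK293T), -0.18 (liver bud), 0.17 (neuron), -0.40 (mESC), 0.35 (interaction), -0.37 (cytoplasm) and 0.14 (P-bodies), and the share of higher among all calls from 55.7% to 44.1% in liver bud progenitors, 50.8% to 62.0% in neurons, 55.6% to 28.2% in mESC, 52.0% to 78.9% in the interaction and 50.2% to 36.5% in cytoplasm. The interaction members called lower numbered 4 in place of 2 with ribosomal RNA genes left out, in the fit over all human libraries and with the replicate block. Pairing was not in the labels beyond the number, the correlation of same-numbered deviations was -0.09, 0.06, 0.13 and -0.04, and the block moved no other count of members by over 1.5 times. Leaving out each library gave 2 to 4 HEK293T members higher, 0 to 1 neuron members higher and 2 to 4 interaction members lower, and Meg3 in mESC, not called, ranged from -0.243 to 0.0608 and was 0.0112 without cytoplasm replicate 2. A lone library was assumed to vary like the rest. MEG3 left the HEK293T table under filterByExpr.

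The class difference in liver bud progenitors was -1.30 for MALAT1 against NORAD alone, -2.07 from summed CPM and -2.59 to -2.09 with each member left out. In HEK293T leaving out members gave 0.72 to 1.43. In neurons it was 0.14 for MALAT1 against NORAD, -0.58 from sums and -0.50 to 0.50 with members left out, so its sign rests on the choice of members. In mESC it was -1.10 from sums, -1.82 to -1.16 with members left out and -1.06 with both counterparts added. Of the members' own log2 changes, 307 of the values under other settings kept direction and call, 12 gained and 2 lost the call, and 2 reversed, and 199, 9, 6 and 2 did so when a library was left out. With 2 libraries per group and 3 to 13 counts, MEG3 in HEK293T allows no statement on direction.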
